A study of Mus musculus with 16 samples.

Results

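The 10 Sox genes Sox4, Sox7, Sox8, Sox9, Sox10, Sox11, Sox14, Sox17, Sox18 and Sox21 were chosen by name as Sox factors of lineage commitment, out of 22232 protein-coding gene names of the mouse annotation (GENCODE M1, genome build mm9). For each gene, the peaks of 10 ChIP-seq lists were collected within 2500 bp of any protein-coding start site, which is called the start-site window here, and over the gene body. The covered length is the number of base pairs of a window that lie inside peaks of a list. The fold of a peak is its enrichment over the local background of its own library, so folds were not compared between libraries.

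The study asked how PCGF5, a subunit of a variant form of Polycomb repressive complex 1 (PRC1), acts when mouse embryonic stem (ES) cells become neural cells. Lists of the PRC1 mark H2AK119ub1 and of the PRC2 mark H3K27me3 came from ES and from day 6 neural progenitor cells (NPC), each from wild-type (WT) cells and from cells with a short hairpin RNA against PCGF5 (shPCGF5). The cells were of the 46C line, a mouse ES line with GFP in the Sox1 locus. The ES cells were kept on mouse embryonic fibroblast feeders in medium with fetal bovine serum, LIF and the 2i inhibitors. The neural cells were made from these ES cells in suspension culture. The shPCGF5 cells carried an integrated lentiviral hairpin and were picked as drug-resistant colonies, so that they stand for the depletion of PCGF5 and not for a deletion. A further ES and a further NPC list held the sites of PCGF5 itself, from cells whose own Pcgf5 gene carried a 3×Flag tag (Flag-PCGF5); the labels give these cells as wild type. There was 1 library per group, so that no difference was tested. Chromatin of feeder fibroblasts in the ES libraries was not told apart from that of the ES cells.

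Sox proteins share the DNA-binding HMG box of the male sex determinant SRY and are sorted by sequence into groups whose members often act in the same tissues. PRC1 attaches ubiquitin to a lysine of histone H2A through its RING1A or RING1B subunit, which gives H2AK119ub1, and PRC2 methylates a lysine of histone H3, which gives H3K27me3. In ES cells both marks lie over CpG-rich promoters of developmental regulators that are silent or barely transcribed, and many of these genes lose the marks in the lineage in which they are switched on.

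The lists held 3845 to 8672 H2AK119ub1 peaks covering 1.12 to 2.49 Mb, and 10234 to 14759 H3K27me3 peaks covering 3.84 to 9.67 Mb. The NPC H3K27me3 lists covered 9.67 Mb in WT and 8.18 Mb in shPCGF5, against 4.31 and 3.84 Mb in ES, so that the NPC lists covered more of the genome as a whole. The 2 Flag-PCGF5 lists held 653 peaks in ES and 12013 in NPC. Read totals are not part of the lists, so the depth behind each peak is unknown, and a gene with no peak may still carry the mark below the calling threshold. At the markers of pluripotent cells, Pou5f1 and Nanog had no peak in any list, while H3K27me3 covered 0 bp in WT ES and 253 bp in WT NPC at Zfp42, 0 and 2156 bp at Klf4, and 1340 and 2774 bp at Esrrb. Of the neural markers, H3K27me3 was longer in WT NPC than in WT ES at Pax6 (4350 and 17888 bp in WT ES and WT NPC), Nes (0 and 1252 bp) and Pou3f2 (901 and 1953 bp), and at Cdh2 it was listed in WT ES alone (330 and 0 bp). At the 3 endoderm and 3 mesoderm markers, H3K27me3 covered 164 to 1608 bp in WT ES and 2508 to 6003 bp in WT NPC. The lists do not measure expression.

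The 10 chosen Sox genes were marked far more often than protein-coding genes in general. A H3K27me3 peak lay in the start-site window of 10 of the 10 genes in WT ES and in shPCGF5 ES, where 13.5% and 13.0% of all genes had one. In NPC the number was 8 in WT, against 15.9% of all genes, and 9 in shPCGF5, against 15.6%. H2AK119ub1 peaks were found at 8 genes in WT ES (6.82% of all genes), 6 in shPCGF5 ES (6.05%), 5 in WT NPC (5.04%) and 7 in shPCGF5 NPC (4.22%). No Sox gene had a Flag-PCGF5 peak in ES (0.819% of all genes), and Sox4 and Sox11 had one in NPC, a number near the 14.1% of all genes. The 10 genes were chosen as developmental regulators, a class known to carry these marks, and with earlier results of these data known. The shares therefore describe the chosen genes and not the Sox family. Of 9 other Sox genes, 2 had a H3K27me3 peak in WT ES.

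**Figure D1:**
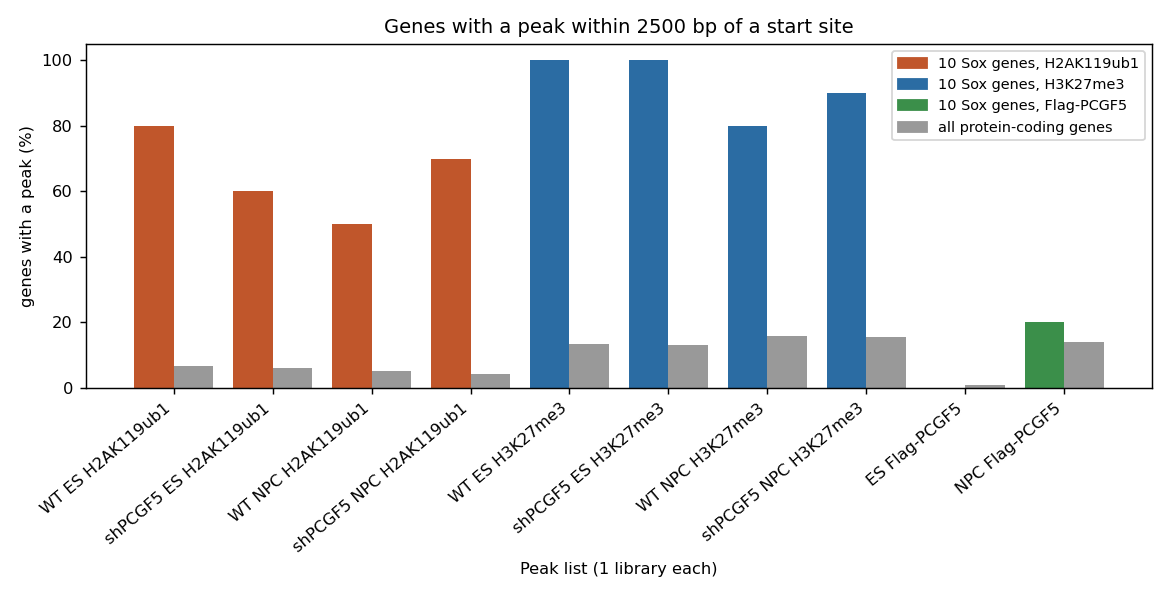
Percentage of genes with a peak within 2500 bp of a start site in each of the 10 peak lists (x axis), as coloured bars for the 10 Sox genes and grey bars for all 22232 protein-coding genes. The coloured bars of the histone marks stand far above the grey ones in every list, whereas Flag-PCGF5 in NPC stands at 2 of 10 genes beside 14.1%.

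Sox14 had the greatest covered length summed over the 8 histone lists, 12788 bp, followed by Sox9 with 9430 bp, Sox21 with 8239 bp and Sox10 with 8234 bp. Sox7 had 8046 bp, Sox17 7731 bp, Sox18 7424 bp and Sox8 6285 bp. The SoxC members came last, Sox11 with 3865 bp and Sox4 with 2127 bp. The windows ran from 5001 bp at Sox7, Sox11 and Sox18 to 7505 bp at Sox9 and 7572 bp at Sox4. The order is therefore one of base pairs and not of window shares. With 1 library per list, neighbours in this order cannot be told apart by their spread. Sox14 and Sox9 had peaks in all 8 histone lists, and Sox4 in 4 of them.

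**Figure D2:**
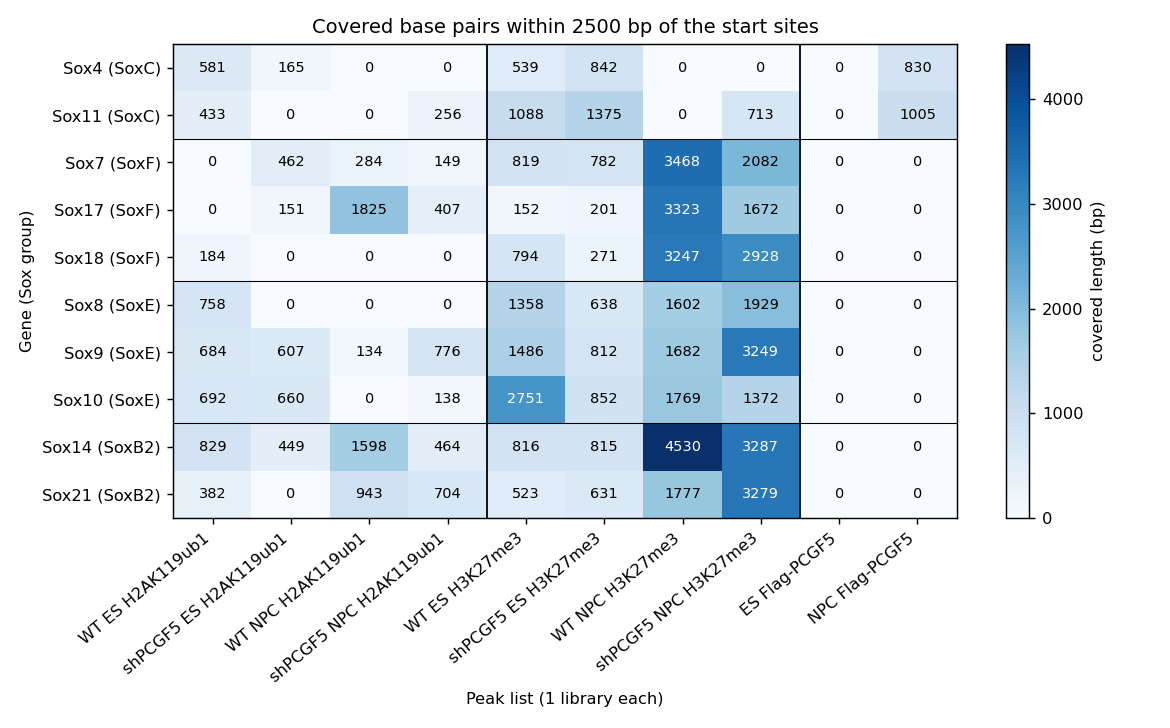
Covered length in base pairs within 2500 bp of the start sites for the 10 Sox genes (rows, ordered by Sox group) in the 10 peak lists (columns, 1 library each), with the value printed in each cell and a darker blue for a greater length. The darkest cells are those of H3K27me3 in NPC, where Sox14 reached 4530 bp in WT and Sox4 stood at 0 bp in both lists.

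Sox4 and Sox11 belong to the SoxC group with Sox12, which was not among the chosen genes and had no peak in any list. SoxC proteins are expressed in neurons as they leave the progenitor state and take part in the expression of neuronal genes. Sox4 and Sox11 were the only members with no H3K27me3 peak in WT NPC, and the only members with a Flag-PCGF5 peak. Sox11 is a gene of 1 exon on the minus strand (chr12:28025562-28027574). Its window held H3K27me3 over 1088 bp in WT ES, 1375 bp in shPCGF5 ES, 0 bp in WT NPC and 713 bp in shPCGF5 NPC. H2AK119ub1 covered 433 bp in WT ES, 0 bp in shPCGF5 ES, 0 bp in WT NPC and 256 bp in shPCGF5 NPC. Thus neither mark had a peak at Sox11 in WT NPC, and both had one in shPCGF5 NPC. In WT NPC the nearest H3K27me3 peak lay 175673 bp from the start site.

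The peaks of shPCGF5 NPC over Sox11 ranked low in their own lists. The H3K27me3 peak had a fold of 2.71 and a score above that of only 10.5% of its list, and this fold was the lowest of the 37 peaks of that list in the windows of the Sox genes. The H2AK119ub1 peak had a fold of 3.76 at percentile 16.6 of its list by score, also the lowest fold among the 9 peaks of that list at the Sox genes. With the higher-scoring 50% of each list alone, neither peak was left. Within the WT ES lists, the H2AK119ub1 peak of Sox11 stood at percentile 88.7 and the longer H3K27me3 peak at percentile 82.3; ranks in lists of unequal length do not measure a difference in strength. The H2AK119ub1 peak of shPCGF5 NPC lay within the coding part of the exon and shared 153 of its 256 bp with the H2AK119ub1 peak of WT ES, and all of them with H3K27me3 in WT ES and in shPCGF5 NPC.

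A pair of stretches of Sox11 is shown because the H2AK119ub1 difference between WT and shPCGF5 NPC rests on the first and the Flag-PCGF5 peak lies over the second. The H3K27me3 difference rests on a longer peak of 713 bp, which is not shown whole. The first is the H2AK119ub1 peak of shPCGF5 NPC in the coding exon, chr12:28026632-28026887. The second is the shorter H3K27me3 peak of WT ES, chr12:28027724-28027923, which begins 150 bp upstream of the annotated start and was inside the Flag-PCGF5 peak of NPC over its whole 200 bp. Both are read from mm9 on the minus strand, 5′ to 3′, with the dinucleotide CG, which reads the same on both strands, in capitals.
Sox11 coding: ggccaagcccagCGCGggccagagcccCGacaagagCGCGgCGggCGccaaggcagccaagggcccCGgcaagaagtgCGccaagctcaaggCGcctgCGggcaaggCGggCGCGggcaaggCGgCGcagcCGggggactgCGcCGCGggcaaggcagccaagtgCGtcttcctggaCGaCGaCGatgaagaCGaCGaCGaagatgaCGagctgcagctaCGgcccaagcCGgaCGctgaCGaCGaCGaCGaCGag
Sox11 upstream: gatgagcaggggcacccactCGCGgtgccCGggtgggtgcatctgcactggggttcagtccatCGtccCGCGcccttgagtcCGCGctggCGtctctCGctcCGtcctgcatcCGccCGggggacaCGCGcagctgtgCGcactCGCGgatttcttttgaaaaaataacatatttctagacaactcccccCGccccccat
The coding stretch held 36 CG in 256 bp at a GC content of 71.9%, and the upstream stretch 19 CG in 200 bp at 63.5%. Stretches of the same length directly upstream of the start of 22227 genes held a median of 9 and 7 CG, and 92.7% and 90.4% of them held at least 1.

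Flag-PCGF5 in NPC covered 1005 bp at Sox11 (chr12:28027457-28028461) and included the start site, with a fold of 2.06 at percentile 27.4 of its list by score. This peak shared 200 bp with H3K27me3 of WT ES, 820 bp with H3K27me3 of shPCGF5 ES and 0 bp with either mark in NPC. The marks of shPCGF5 NPC therefore lay inside the gene, downstream from the place where Flag-PCGF5 was found in tagged NPC.

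Sox4 (chr13:29040788-29045582, minus strand, 1 exon) carries 2 gene records of the same name in the annotation, and the start sites of both were used. H3K27me3 covered 539 bp in WT ES, 842 bp in shPCGF5 ES and 0 bp in WT and shPCGF5 NPC. H2AK119ub1 covered 581 bp in WT ES, 165 bp in shPCGF5 ES and 0 bp in both NPC lists. At Sox4 the marks were thus listed in ES and not in NPC of either genotype, unlike at Sox11. The nearest H3K27me3 peak lay 1182681 bp away in WT NPC and 1795795 bp away in shPCGF5 NPC. The H2AK119ub1 peak of WT ES had a fold of 7.89, the highest of the 12 at the Sox genes in that list, at percentile 95.4. The peak of shPCGF5 ES shared 0 bp with it. Flag-PCGF5 in NPC covered 830 bp (chr13:29042780-29043609) with a fold of 2.59 at percentile 79.1, and shared 98 bp with H2AK119ub1 and 73 bp with H3K27me3 of shPCGF5 ES.

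**Figure D3:**
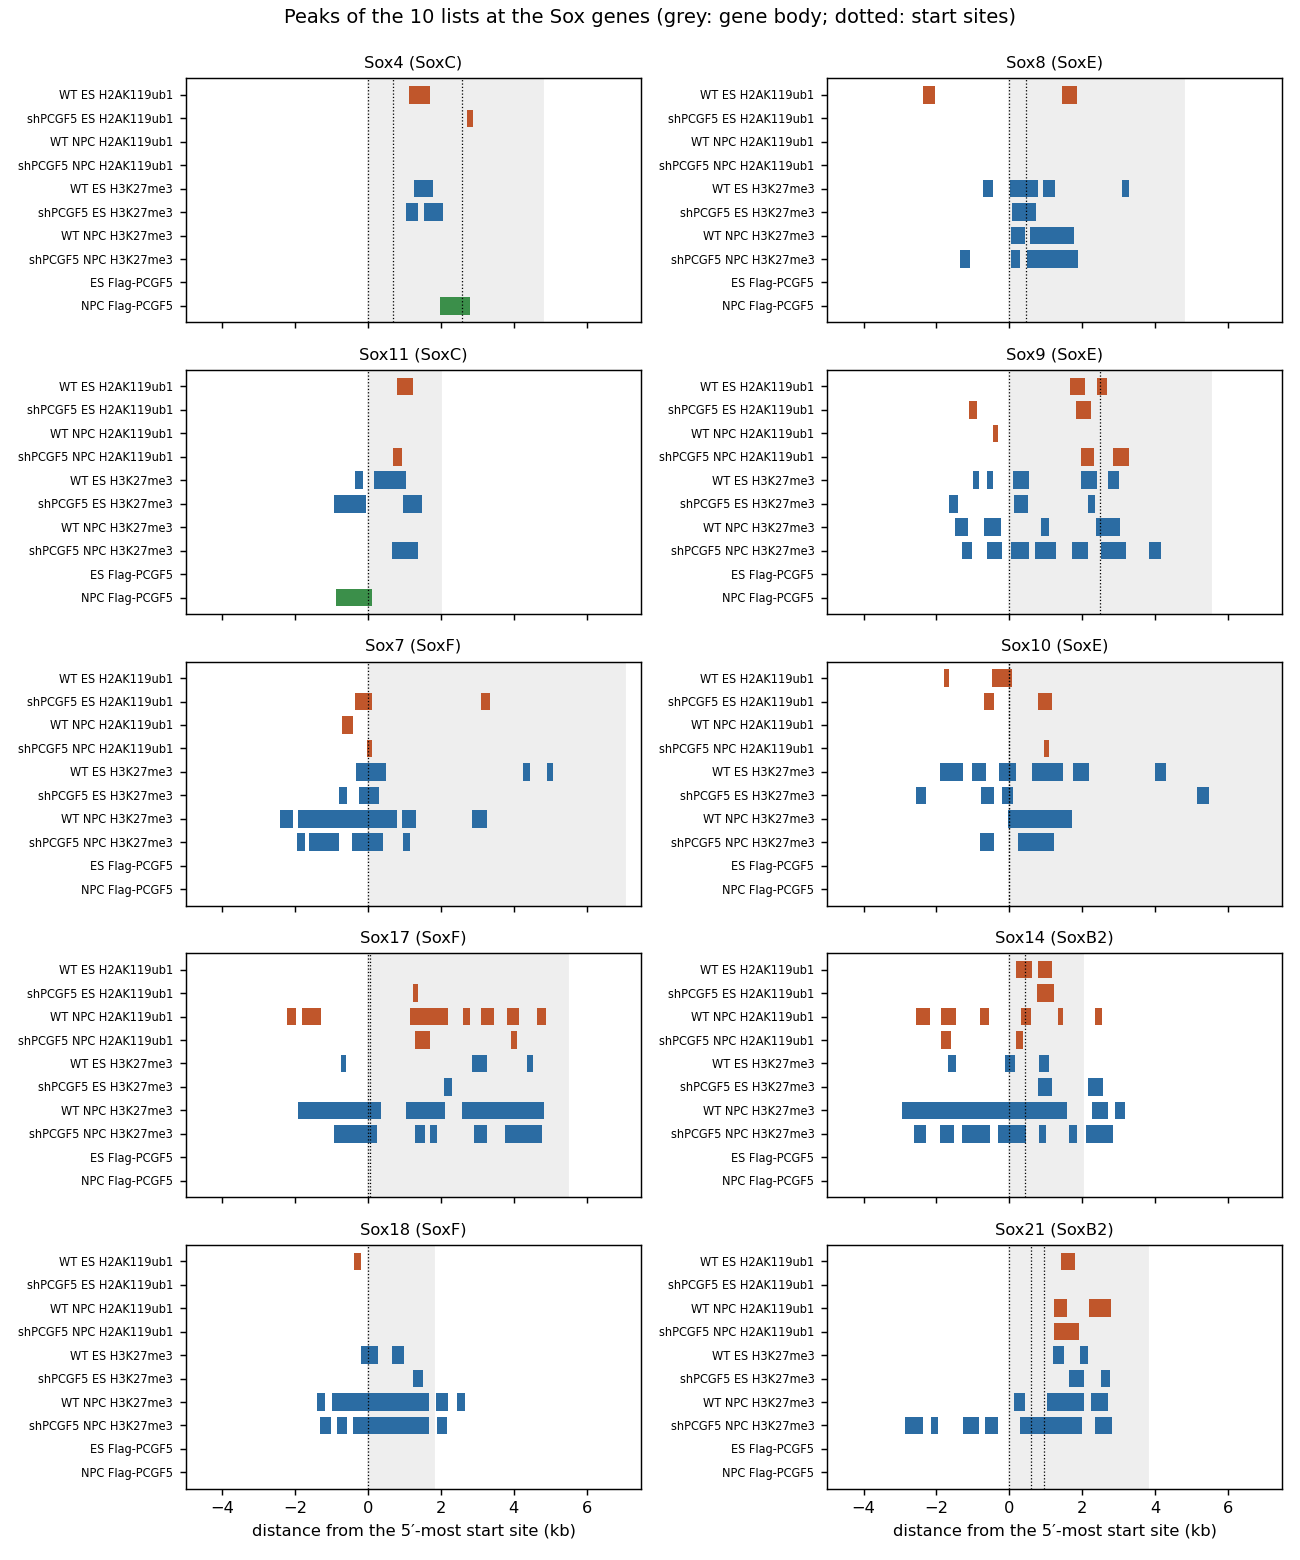
Position of every peak of the 10 lists (rows; orange H2AK119ub1, blue H3K27me3, green Flag-PCGF5) at each of the 10 Sox genes, with the distance in kb from the 5′-most start site along the gene on the x axis, which ends at 7.5 kb. Grey marks the gene body and dotted lines the start sites; in NPC the blue bars of Sox7, Sox14, Sox17 and Sox18 reach upstream and downstream of the start, and those of Sox4 are missing.

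The SoxF genes Sox7, Sox17 and Sox18 are known from endoderm and from the endothelium of blood and lymph vessels, lineages other than the neural one. Their windows held 152 to 819 bp of H3K27me3 in ES and 1672 to 3468 bp in NPC. For Sox17, an inducer of definitive endoderm (chr1:4481009-4486494, minus strand), H3K27me3 covered 152 bp in WT ES, 201 bp in shPCGF5 ES, 3323 bp in WT NPC and 1672 bp in shPCGF5 NPC. H2AK119ub1 covered 0, 151, 1825 and 407 bp in the same order. The value of WT NPC was the greatest of any Sox gene for H2AK119ub1, and the shPCGF5 peak of 407 bp lay wholly within the WT peaks. The strongest of these WT NPC peaks had a fold of 8.05 and stood at percentile 94.8. Over the gene body, H3K27me3 covered 561, 201, 3656 and 2122 bp and H2AK119ub1 0, 151, 2179 and 570 bp, so that for H3K27me3 WT ES stood above shPCGF5 ES there and below it in the window.

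Sox18, a regulator of lymphatic endothelium (chr2:181404541-181406345, minus strand), carried H3K27me3 with little H2AK119ub1. H3K27me3 covered 794 bp in WT ES, 271 bp in shPCGF5 ES, 3247 bp in WT NPC and 2928 bp in shPCGF5 NPC, and in NPC it lay over 92.4% of the gene body in WT and 92.7% in shPCGF5. H2AK119ub1 was listed over 184 bp in WT ES and over 0 bp in the other 3 lists. Sox7, a regulator of endothelium and primitive endoderm (chr14:64562511-64569569, plus strand), had H3K27me3 over 819 bp in WT ES, 782 bp in shPCGF5 ES, 3468 bp in WT NPC and 2082 bp in shPCGF5 NPC. The WT NPC list included a single Sox7 peak of 2723 bp with a fold of 8.83, the highest fold of the 22 H3K27me3 peaks at the Sox genes in that list. H2AK119ub1 covered 0, 462, 284 and 149 bp of the Sox7 window in the order WT ES, shPCGF5 ES, WT NPC and shPCGF5 NPC. The peaks of WT NPC and shPCGF5 NPC at Sox7 shared 0 bp, the first lying upstream of the start site and the second over it.

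The SoxE genes Sox8, Sox9 and Sox10 act in neural crest and glia, and Sox9 also in cartilage and testis. In base pairs they carried the longest H3K27me3 of the Sox genes in WT ES. By share of the window, Sox11 with 21.8% stood above Sox9 with 19.8% there. At Sox9 (chr11:112643538-112649074, plus strand) H3K27me3 covered 1486 bp in WT ES, 812 bp in shPCGF5 ES, 1682 bp in WT NPC and 3249 bp in shPCGF5 NPC. H2AK119ub1 covered 684, 607, 134 and 776 bp. Both marks were thus longer at Sox9 in shPCGF5 NPC than in WT NPC. The 134 bp of WT NPC lay upstream of the first start site, shared 0 bp with the 776 bp of shPCGF5 NPC, and the latter were inside the gene.

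At Sox10, a determinant of neural crest and oligodendrocytes (chr15:78985343-78994920, minus strand), H3K27me3 covered 2751 bp in WT ES, 852 bp in shPCGF5 ES, 1769 bp in WT NPC and 1372 bp in shPCGF5 NPC. The 2751 bp were the greatest H3K27me3 length of any Sox gene in ES. H2AK119ub1 covered 692, 660, 0 and 138 bp. At Sox8 (chr17:25702837-25707631, minus strand) H3K27me3 covered 1358, 638, 1602 and 1929 bp, whereas H2AK119ub1 covered 758 bp in WT ES and 0 bp in the other 3 lists. Sox8 was the only member with peaks of both marks in WT ES that shared no base pair.

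The SoxB2 genes Sox14 and Sox21 encode transcriptional repressors that act in the neural lineage, Sox21 in progenitors and Sox14 in subsets of interneurons. Although these are neural genes, both were covered for longer by H3K27me3 in NPC than in ES. At Sox14 (chr9:99774644-99776663, minus strand) H3K27me3 covered 816 bp in WT ES, 815 bp in shPCGF5 ES, 4530 bp in WT NPC and 3287 bp in shPCGF5 NPC. A single WT NPC peak of 4537 bp was the widest of all peaks at the Sox genes. H2AK119ub1 covered 829, 449, 1598 and 464 bp, and 335 of the 464 bp in shPCGF5 NPC were shared with WT NPC.

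A stretch upstream of Sox14 is shown because the 4 NPC histone lists all covered it whole. It held fewer CG than the median stretch of its length directly upstream of start sites. It is the H2AK119ub1 peak of shPCGF5 NPC at chr9:99778250-99778523, with its centre at -1724 bp from the first start site (minus denotes upstream), read from mm9 on the minus strand.
Sox14 upstream: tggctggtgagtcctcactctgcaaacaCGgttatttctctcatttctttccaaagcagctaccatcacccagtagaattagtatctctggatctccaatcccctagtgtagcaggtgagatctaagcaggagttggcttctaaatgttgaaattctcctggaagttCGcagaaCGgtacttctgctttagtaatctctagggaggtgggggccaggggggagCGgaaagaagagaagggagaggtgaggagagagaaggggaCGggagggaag
It held 5 CG in 274 bp at a GC content of 50.0%. Stretches directly upstream of the start of all genes held a median of 9, and 93.2% of them held at least 1. Those stretches lie nearer to the start than this one, so the places compared are unlike. The H3K27me3 list of WT ES covered 101 bp of it, and the other ES lists none. The peak itself, which its own list covers whole by definition, ranked low, with a fold of 3.89 at percentile 6.35 of its list by score.

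At Sox21 (chr14:118632454-118636252, minus strand, 1 exon) H3K27me3 covered 523 bp in WT ES, 631 bp in shPCGF5 ES, 1777 bp in WT NPC and 3279 bp in shPCGF5 NPC. H2AK119ub1 covered 382, 0, 943 and 704 bp. In shPCGF5 NPC a H3K27me3 peak of 1690 bp, with a fold of 6.73 at percentile 94.4, ran over 2 of the 3 start sites, and 4 more began within the window upstream of the gene, where WT NPC had none. The nearest Flag-PCGF5 peak of NPC lay 3885 bp from a start site.

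In the comparison of shPCGF5 with WT, a difference in covered length was called where it was 2-fold or more and 200 bp or more, among genes with a peak in either list. In ES, H2AK119ub1 was shorter at Sox4, Sox8, Sox11 and Sox21 and longer at Sox7, that is at 4 and 1 of 10 genes, where 27.4% and 21.0% of the 2115 genes with such a peak were called. The median difference, shPCGF5 minus WT, was -282 bp over the Sox genes and -127 bp over those 2115 genes. H3K27me3 in ES was shorter at Sox8, Sox10 and Sox18 and longer at none of 10 genes, where 28.7% and 27.1% of 3773 genes were called. The medians were -19 bp and -87 bp. For H3K27me3 the share of Sox genes on the shorter side was thus near that of all genes with the mark, and for H2AK119ub1 it was 4 of 10 beside 27.4%. The H2AK119ub1 calls of Sox7, Sox8 and Sox21 were lost with the higher-scoring 50% of each list, and the H3K27me3 call of Sox10 was lost in windows of 1000 bp and of 10000 bp.

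In NPC, H2AK119ub1 was longer in shPCGF5 at Sox9 and Sox11 and shorter at Sox14 and Sox17, of 7 Sox genes with a peak in either list, where 16.5% of 1484 genes were called longer and 37.1% shorter. H3K27me3 was longer at Sox11 and shorter at none of 9 Sox genes, against 19.9% longer and 33.1% shorter of 4302 genes. The median difference for H3K27me3 was -159.5 bp over the 10 Sox genes and -275.5 bp over the 4302 genes. The 10 include Sox4, which had no peak in either list and a difference of 0 bp. These medians are therefore of unlike sets and were not compared. The shPCGF5 list as a whole covered less of the genome than the WT list. Sox11 was therefore the only Sox gene called longer for both marks, and both calls were lost with the higher-scoring 50% of each list. Sox9 and Sox21 missed the 2-fold threshold for H3K27me3, with 1682 and 1777 bp in WT NPC and 3249 and 3279 bp in shPCGF5 NPC.

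**Figure D4:**
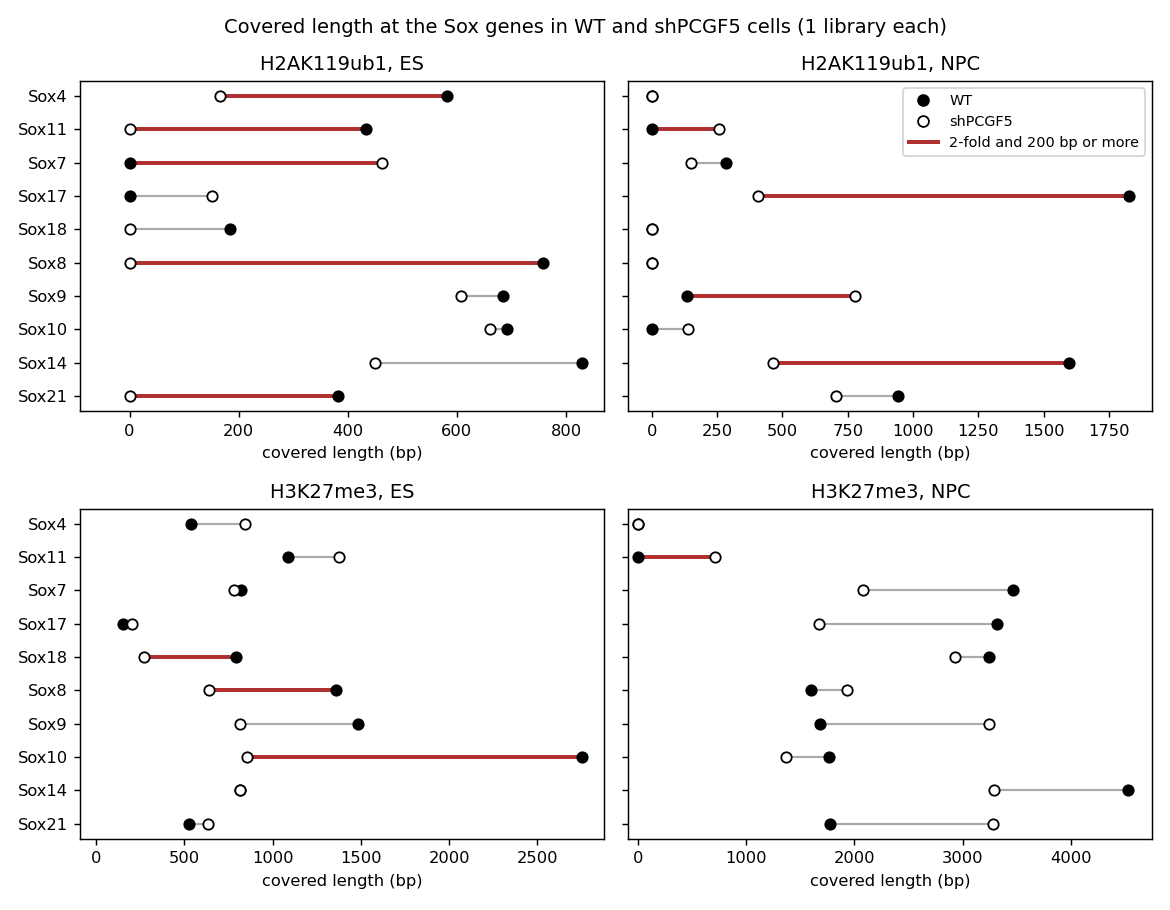
Covered length in base pairs (x axis) at the 10 Sox genes (y axis) in WT (filled circles) and shPCGF5 (open circles) libraries, 1 of each, for H2AK119ub1 (top) and H3K27me3 (bottom) in ES (left) and NPC (right), with a scale of its own in each panel. Red lines join values that differ 2-fold or more and by 200 bp or more: 5 genes for H2AK119ub1 in ES, 4 in NPC, and 3 and 1 for H3K27me3.

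Between ES and NPC, H3K27me3 of WT was called longer at some Sox genes and shorter at others, in numbers near the background. A division by Sox group was not tested. In WT, H3K27me3 was called longer in NPC at 5 of 10 genes, namely Sox7, Sox17 and Sox18 of SoxF and Sox14 and Sox21 of SoxB2, and shorter at 2, the SoxC genes Sox4 and Sox11. Of the 4367 genes compared, 59.7% were called longer and 16.5% shorter. The number of longer Sox genes was thus no higher than the background, and the number of shorter ones was near it. In shPCGF5 it was longer at 7 genes, those 5 with Sox8 and Sox9, and shorter at Sox4 only, where 53.6% and 19.2% of 4148 genes were called. There the SoxE members were not called alike, nor were the SoxC members, since Sox10 and Sox11 were called in neither direction. The median difference, NPC minus ES, was 749 bp in WT and 1385.5 bp in shPCGF5 over the Sox genes, and 574 and 393 bp over all genes compared. The comparisons of WT and of shPCGF5 shared no library.

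H2AK119ub1 followed another pattern. In WT it was longer in NPC at Sox7, Sox17 and Sox21 and shorter at Sox4, Sox8, Sox9, Sox10 and Sox11, where 25.0% of 2073 genes were called longer and 34.0% shorter. Each SoxE and SoxC gene among the 10 members was thus on the shorter side in WT. The calls of Sox17 and Sox21 were lost within 1000 bp of the start sites, where no H2AK119ub1 of Sox17 was listed, and those of Sox7, Sox8 and Sox10 with equal numbers of top-scoring peaks per list. In shPCGF5 it was longer at Sox11, Sox17 and Sox21 and shorter at Sox7 and Sox10, of 8 Sox genes compared, against 15.8% and 36.3% of 1729 genes. With the higher-scoring 50% of each list, the shPCGF5 calls of Sox7, Sox10, Sox11 and Sox17 were lost. With equal numbers of peaks the differences at Sox7 and Sox10 changed sign, to 149 and 138 bp longer in NPC. Both are below the 200 bp needed for a call. The summed length over the 10 windows differed little between the stages, with 4543 bp in WT ES and 4784 bp in WT NPC, and 2494 bp in shPCGF5 ES and 2894 bp in shPCGF5 NPC.

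Equal lengths did not mean equal places. Of the 4 Sox genes with H2AK119ub1 in both WT ES and shPCGF5 ES, 3 had peaks that shared a base pair, against 67.6% of 747 genes. In NPC it was 3 of 5, against 72.6% of 574 genes. H3K27me3 of WT and shPCGF5 shared base pairs at 8 of 10 Sox genes in ES (78.8% of 2129 genes) and at 8 of 8 in NPC (92.2% of 2695 genes). By this count of genes sharing any base pair, the Sox genes stood close to all genes. The median share of the shorter length held in common was lower at the Sox genes in ES. It was 23.8% beside 45.0% for H2AK119ub1 and 43.6% beside 53.7% for H3K27me3. In NPC it was 50.7% beside 56.2% and 87.6% beside 85.0%, in the same order. These Sox medians rest on 4 to 10 genes.

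At the Sox genes, a greater part of the H2AK119ub1 length lay under H3K27me3 in NPC than in ES. For all genes, the share of genes with any overlap is given beside it, which is not a share of length. That share was also higher in NPC, whose H3K27me3 lists covered more of the genome. In WT NPC all 5 Sox genes with H2AK119ub1 had H3K27me3 over part of it, and 91.1% of the 4784 bp of H2AK119ub1 were shared, while 89.3% of all genes with H2AK119ub1 showed such an overlap. In shPCGF5 NPC it was 7 of 7 genes and 88.1% of the length (86.7% of all genes). In WT ES it was 7 of 8 genes, but 38.1% of the length (59.5% of all genes), and in shPCGF5 ES 4 of 6 genes and 44.6% (45.3% of all genes). Sox14 shared 300 of 829 bp in WT ES and all 1598 bp in WT NPC. At Sox9 in WT ES the overlap was 114 of 684 bp.

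The start sites of the Sox genes were mostly rich in CG. Within 500 bp of the 5′-most start site, the observed-to-expected ratio of CG was above the median of all genes, 0.555, at 8 of the 10. Sox11 had the highest ratio, 0.969, at a GC content of 67.5%. Sox10 with 0.325 and Sox17 with 0.414 lay below the median, and Sox14 was close to it with 0.601. No relation of these ratios to the marks was tested.

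Genes that were no members but resembled them most in covered length were sought by the mean absolute difference over the 10 lists. Nr2f1 (219.9 bp) and Wnt2b (254.9 bp) were nearest to Sox9, and Nrp2 (195.4 bp) and Nell1 (220.8 bp) to Sox21.

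Of 9 other Sox genes measured in the same way, most carried none of the marks. H3K27me3 was listed at Sox6 and Sox30 in all 4 lists and at Sox3 in shPCGF5 NPC. H2AK119ub1 was listed at Sox6 in all 4 lists and at Sox30 in WT ES. Sox2, a core factor of pluripotent and neural progenitor cells, and Sox12, the third SoxC gene, had no peak in any of the 10 lists. Flag-PCGF5 in NPC was found at Sox5, Sox6 and Sox15. Sox1 was not analysed here.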

How the data were processed

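Nuclease-digested, lightly fixed chromatin was used for the histone marks, and sonicated chromatin fixed with EGS and formaldehyde for Flag-PCGF5. According to the study's methods, the authors used Trimmomatic for trimming, Bowtie2 for alignment to mm9, Picard against duplicates and MACS2 (2.1.0 in the submitters' processing notes) for peaks of each library, with a p cutoff of 0.0001 and then a q below 0.01 for Flag-PCGF5. Each deposited peak carries a score, which is 10 times the −log10 p (histone marks) or −log10 q (Flag-PCGF5) rounded down, the fold enrichment, and both −log10 values computed by the authors. In the deposited Flag-PCGF5 lists the lowest −log10 p was 3.62 in ES and 2.94 in NPC. Such peaks fall short of the stated p cutoff, and the reason was not tested. The 6 input libraries and the study's spike-in were not used here. The lists hold no read totals, so the depth per sample is unknown and no interval was given.

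Start sites and gene bodies came from protein-coding transcripts of GENCODE M1. An overlap of 1 bp placed a peak in a window, and covered lengths were counted per gene and list (Python 3.11.15, numpy 2.4.6, matplotlib 3.10.9). Differences of 2-fold or more and 200 bp or more were called over all genes with a peak in either list; with 1 library per group no test was run. The calculation was tested on simulated peaks and compared with bedtools 2.31.1 in 100 gene and list pairs, of which 0 differed. All 10 members were named, as were up to 2 similar genes for the 3 members with the greatest length and the other Sox genes of a list. The members and lists were chosen with earlier results of these data known. Sequences were read from the NCBIM37 (mm9) genome. The similar genes of Sox14 and 1 sequence are not reported here. Alternatives changed the peak lists, the window, the fold and the gene models.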

Additional observations from a re-analysis of the deposited data

Results flagged for a closer look

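At 2 genes the covered length of H2AK119ub1 differed in opposite directions between groups under the same comparison. With 1 library per group, the difference between the groups was not tested. At Sox11 the value of shPCGF5 minus WT was -433 bp in ES, where WT had 433 bp and shPCGF5 0 bp, and 256 bp in NPC, where WT had 0 bp and shPCGF5 256 bp. Read along differentiation, NPC minus ES was therefore -433 bp in WT and 256 bp in shPCGF5. The NPC peak stood at percentile 16.6 of its list by score by score. At Sox7, NPC minus ES was 284 bp in WT and -313 bp in shPCGF5; all of the Sox7 peaks of H2AK119ub1 stood below the 50th percentile of their lists.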

How the results depend on the processing

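Of 41 called differences of single Sox genes, 20 kept their call under every alternative tried and 3 turned their sign under one. No paired analysis was possible because each group had 1 library, and no replicate was left out for the same reason. The shorter H3K27me3 of Sox4 and Sox11 in WT NPC and the longer H3K27me3 of Sox14, Sox17, Sox18 and Sox21 in NPC kept their calls under all 11 alternatives. Not every alternative could remove a call. The 1.5-fold rule keeps every 2-fold call, and the single Sox4 record leaves the other genes unchanged. The 3-fold rule cannot remove a call with 0 bp in one list, as for Sox4 and Sox11 in WT NPC. The windows of 10000 bp, the joining of peaks and the single Sox4 record were chosen after seeing the data.

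With the higher-scoring 50% of each list, Sox genes with H2AK119ub1 numbered 5 in WT ES, 3 in shPCGF5 ES and 2 in shPCGF5 NPC (8, 6 and 7 with all peaks), and 1 had Flag-PCGF5 in NPC (2). For shPCGF5 against WT, H2AK119ub1 was then longer at 0 genes in ES and 1 in NPC (1 and 2), and H3K27me3 in NPC longer at 0 and shorter at 2 (1 and 0), so that the call of Sox11 was lost for both marks. For NPC against ES in shPCGF5, H2AK119ub1 was longer at 1 and shorter at 1 (3 and 2), and H3K27me3 shorter at 2 (1). With equal numbers of top-scoring peaks per mark, H2AK119ub1 was at 4 genes in WT ES and 3 in shPCGF5 ES (8 and 6), and Flag-PCGF5 in NPC at 0 (2). H2AK119ub1 in shPCGF5 ES was longer at 0 and shorter at 2 (1 and 4), H3K27me3 longer at 1 in ES (0), and in NPC longer at 0 and shorter at 1 (1 and 0). Shorter in NPC than in ES were 3 genes for H2AK119ub1 in WT (5), 0 in shPCGF5 (2), and 2 for H3K27me3 in shPCGF5 (1). Under this setting NPC minus ES in shPCGF5 for H2AK119ub1 turned to 149 bp at Sox7 (-313 bp) and to 138 bp at Sox10 (-522 bp).

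Within 1000 bp of the start sites, H2AK119ub1 was shorter in shPCGF5 NPC at 1 gene (2) and longer in WT NPC than in ES at 1 (3), with Sox21 at -25 bp in place of 561 bp, and H3K27me3 was shorter in shPCGF5 NPC than in ES at 2 (1). Over gene bodies, H2AK119ub1 was at 3 genes in WT NPC (5) and longer at 2 in shPCGF5 ES (1), and H3K27me3 in shPCGF5 was shorter at 5 in ES (3) and longer at 2 and shorter at 1 in NPC (1 and 0). At 1.5-fold, H3K27me3 in shPCGF5 was longer at 1 gene in ES (0), longer at 3 and shorter at 2 in NPC (1 and 0), and shorter in NPC than in ES at 2 (1); at 3-fold it was shorter in ES at 1 (3). Within 10000 bp, 1 gene, Sox18, had Flag-PCGF5 in ES (0), and H3K27me3 was longer in shPCGF5 NPC at 2 (1). With peaks within 1000 bp joined, it was longer at 3, Sox9, Sox11 and Sox21 (1), and shorter at 1 (0). The cause of these shifts was not tested. A q of 0.05 or lower, the peak centre and the single Sox4 record moved no count by over 1.5 times. Peaks called at unknown depth, and in lists of unequal length, limit every count.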
